A study of Mus musculus with 549 samples.

Results

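The 36 genes described here encode chaperones of the endoplasmic reticulum (ER) and components of the unfolded protein response. They were chosen by symbol, and each symbol had a row, and was tested, in all 12 deposited tables, out of 23408 genes named in at least 1 table. By role they are 9 folding chaperones and co-chaperones, 2 lectin chaperones, 5 disulfide and prolyl isomerases, 6 stress sensors and transcription factors, 2 targets of ATF4, 7 genes of ER-associated degradation and 5 genes of the translocon and membrane insertion.

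Secreted and membrane proteins enter the ER through the translocon, are folded by chaperones and isomerases, and are sent for degradation when folding fails. When unfolded proteins accumulate, the sensors IRE1 (Ern1), PERK (Eif2ak3) and ATF6 (Atf6) signal to the nucleus, through XBP1, ATF4 and cleaved ATF6, and the transcription of chaperone genes rises. Cells that secrete much matrix or antibody, such as chondrocytes, osteoblasts and plasma cells, are known to keep this machinery at a high level.

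Messenger RNA was sequenced from the 3' end in cartilage, in metaphyseal cortical and cancellous bone cleared of marrow, and in the inguinal lymph node of male C57BL/6J mice. From 18 weeks of age they were injected for 8 weeks with saline vehicle or parathyroid hormone (PTH), whose intermittent injection is known to raise bone formation. The left tibia was then loaded cyclically, with a peak of 9 N and 1200 cycles per day, under injections of saline or of alendronate, a bisphosphonate inhibitor of osteoclasts, and the unloaded right tibia is called contralateral here. Before loading, at 26 weeks of age, vehicle and PTH mice were sampled. After 1 or 2 weeks of loading, at 27 or 28 weeks, the groups were vehicle, PTH, alendronate, and PTH-alendronate, which had PTH first and alendronate during loading. Samples were not pooled. By the codes in the titles, the tissues and the limbs come from the same mice, so tissues and limbs are not independent.

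Of 549 samples 505 had values, and 28 libraries under 100000 reads were left out, which left 477 with 127777 to 3557793 reads (median 1576773). Values are the authors' normalised read counts, and each table was scaled by itself, so tests were made within a table. Groups of 1 tissue, treatment and limb held 3 to 9 libraries after loading, except that cortical and cancellous bone at 1 week had 1 usable library each from loaded PTH-alendronate limbs, which entered no comparison. Marker genes of cartilage cells summed to 198.7 to 38330 CPM (read counts scaled to the same library total) in the cartilage libraries after loading. Osteoblast and neutrophil markers were present in them too, at up to 54100 and 80100 CPM. Bone libraries were mixed as well. Neutrophil markers reached 93080 CPM in cancellous bone at 1 week, and skeletal muscle markers 85640 CPM in cortical bone at 2 weeks. The part of this mixture in the results for bone was not tested. In bulk tissue, fewer cells of a type and less RNA per cell cannot be told apart. By cuts on summed markers 8 libraries were set apart. In lymph node the cuts were above 5000 CPM of neutrophil markers or above 1500 CPM of plasma cell markers. In the other tissues the cut was above 1500 CPM of B and T cell markers together. Lymph node libraries numbered vehicle right 1 at 1 week and vehicle right 5 at 2 weeks held 36100 and 20000 CPM of neutrophil markers, against at most 1660 CPM in the other lymph node libraries. B and T cell markers reached 1540 to 2510 CPM in 3 cartilage libraries and 1620 CPM in 1 cancellous library, where the other libraries of those tissues held at most 758 CPM of B cell and 457 CPM of T cell markers. In lymph node at 2 weeks, plasma cell markers stood at 3710 CPM in vehicle right 6 and 1510 CPM in PTH right 2, against at most 1480 in the others. PTH right 2 was thus set apart by the cut and not by a gap. Results that rest on these libraries are given with and without them.

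Promoters of some of these genes carry a sequence through which ATF6 and XBP1 are known to act, and are shown for that reason. The ER stress response element (ERSE) is CCAAT, 9 other bases, then CCACG, and ERSE-II is ATTGG, 1 other base, then CCACG. In RefSeq promoter windows of GRCm38.p6, from 250 bases before to 50 after a gene start, searched on both strands, 31 of the 36 members had an entry. ERSE was found in 8 of the 31 (25.8%), against 0.119% of all 32851 promoters, and ERSE-II in 2 (6.5%), against 0.037%. The letters CCAAT alone, which are part of ERSE, were found in 24 (77.4%), against 37.408% of all promoters. TGACGT, the core of a cyclic AMP response element, was found in 3 (9.7%), against 7.513%. The unfolded protein response element bound by XBP1, TGACG followed directly by TGG, was found in 0 of the 31, against 0.676%, and TGATG followed directly by CAA, a C/EBP-ATF motif, in 1 (3.2%), against 0.895%. A match is a description of the letters and not a site of binding. The 11 elements are printed with their fixed letters in capitals, in the direction of the motif.

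Hspa5 ERSE, chr2:34772017-34772051, plus strand: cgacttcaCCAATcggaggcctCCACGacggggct
Hsp90b1 ERSE, chr10:86705630-86705664, minus strand: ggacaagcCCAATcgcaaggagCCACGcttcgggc
Hsp90b1 ERSE, chr10:86705525-86705559, plus strand: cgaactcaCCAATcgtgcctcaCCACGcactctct
Calr ERSE, chr8:84847067-84847101, plus strand: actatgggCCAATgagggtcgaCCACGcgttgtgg
Canx ERSE, chr11:50325792-50325826, minus strand: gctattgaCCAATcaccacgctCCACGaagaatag
Creld2 ERSE, chr15:88819512-88819546, minus strand: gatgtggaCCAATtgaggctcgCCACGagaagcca
Dnajc3 ERSE, chr14:118937819-118937853, plus strand: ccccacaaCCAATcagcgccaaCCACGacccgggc
Pdia6 ERSE, chr12:17266483-17266517, plus strand: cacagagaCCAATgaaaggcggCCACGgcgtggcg
Syvn1 ERSE, chr19:6046524-6046558, plus strand: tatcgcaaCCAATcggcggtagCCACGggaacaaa
Dnajb11 ERSE-II, chr16:22857844-22857870, plus strand: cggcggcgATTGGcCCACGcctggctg
Herpud1 ERSE-II, chr8:94386369-94386395, plus strand: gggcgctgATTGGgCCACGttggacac

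The whole window of Hspa5, the member with the clearest change after PTH, lies at chr2:34771840-34772139 on the plus strand, with the 1 match to ERSE in capitals.
Hspa5 promoter: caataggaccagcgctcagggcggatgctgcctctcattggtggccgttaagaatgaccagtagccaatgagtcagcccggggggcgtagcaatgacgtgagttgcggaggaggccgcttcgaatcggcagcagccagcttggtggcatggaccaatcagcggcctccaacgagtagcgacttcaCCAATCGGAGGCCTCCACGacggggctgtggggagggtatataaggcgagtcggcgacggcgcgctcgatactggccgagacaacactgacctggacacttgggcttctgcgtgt

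Levels by tissue were read in vehicle mice before loading, as CPM, which is a share of each library, with no test across tissues. The ratio of the highest to the lowest tissue mean ran from 1.115 for Dnajc3, the ER co-chaperone p58IPK, to 11.93 for Asns, asparagine synthetase. The mean was highest in cancellous bone for 13 members, in cortical bone for 11, in lymph node for 9 and in cartilage for 3. Asns stood at 24.8 ± 7.84 CPM (SD, n = 15) in cartilage, 23.4 ± 7.75 (SD, n = 7) in cancellous bone, 12.3 ± 7.53 (SD, n = 7) in cortical bone and 2.08 ± 1.43 (SD, n = 16) in lymph node. The lymph node libraries, at 0 to 4.35 CPM, all lay below every cartilage and cancellous library, whose lowest were 15.0 and 15.7.

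Serp1, which stabilises membrane proteins at the translocon, was highest in lymph node, at 533 ± 36.0 CPM (SD, n = 16), against 193 ± 49.8 in cartilage (SD, n = 15), a median of 197.3 in cortical bone (n = 7) and 243 ± 44.7 in cancellous bone (SD, n = 7). The lowest lymph node library, at 456.3 CPM, lay above the highest of all other tissues, 451.3. P4hb, the disulfide isomerase that is also a subunit of collagen prolyl 4-hydroxylase, was at 236 ± 74.6 and 226 ± 57.6 CPM in cancellous and cortical bone (SD, n = 7 each), which overlapped, and at 101.7 ± 18.0 in lymph node (SD, n = 16). Xbp1 had its highest mean in cancellous bone, 141 ± 69.3 CPM (SD, n = 7), and its ranges overlapped in all 4 tissues. Hspa5, the ER chaperone BiP, was abundant in every tissue, with means from 1003 CPM in cartilage to 1667 in cortical bone.

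**Figure D1:**
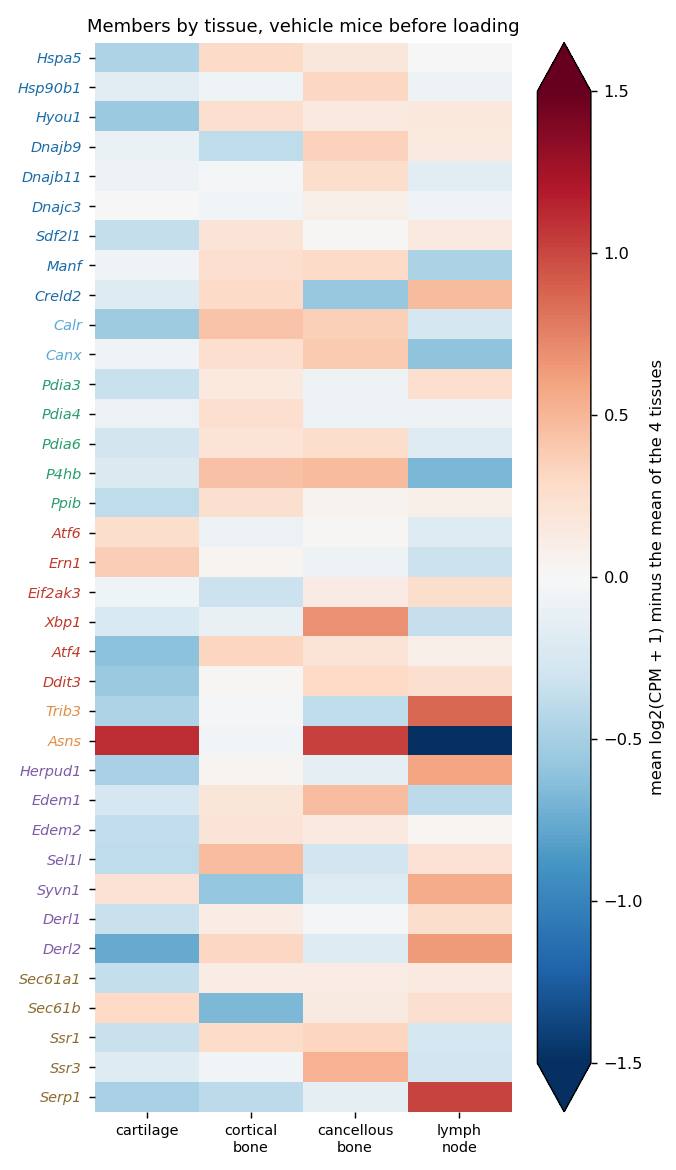
Mean log2(CPM + 1) of each member in 4 tissues of vehicle mice before loading, minus its mean over the tissues (colour; arrows on the bar mark values beyond the scale), with gene names coloured by role. Asns is low in lymph node and Serp1 high, while rows such as Dnajc3 are nearly even.

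The effect of PTH alone was read before loading. In cortical bone Hspa5 fell to 0.353 of its vehicle level and was the only gene of the whole table past the threshold, an adjusted p under 0.05 in limma. The gene lies at chr2:34771970-34777547 (GRCm38) on the plus strand. Its normalised count was 2047 at the lowest, 2552 at the median and 3606 at the highest in 7 vehicle libraries, and 626.7, 992.3 and 1244 in 9 PTH libraries. Every PTH library lay below every vehicle library. The log2 difference was -1.504 ± 0.210 (SE; limma, adjusted p = 0.0133), and 0.00702% of all genes were called lower, which is this gene. The libraries come from 4 vehicle and 5 PTH mice. Limbs of a mouse counted almost as independent in this fit (estimated correlation 0.0849), while Hspa5 followed the mouse in lymph node, as described below. With the replicate number as a block Hspa5 did not pass. The difference stayed between -1.58 and -1.43 when each of 9 mice was left out in turn, but its adjusted p then ran from 0.019 to 0.207 and passed in 3 of 9.

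The other members in cortical bone did not pass, although 32 of 36 had negative differences, with a median of -0.42 against -0.03 over all genes. An unadjusted p under 0.05 was reached by 9 members, all negative, and by 2.9% of all genes. Manf, a secreted ER stress factor, stood at -1.65 ± 0.38 (SE, limma adjusted p = 1.00), with counts of 49.4 to 207.0 in vehicle and 8.78 to 55.8 in PTH libraries, which overlap. Herpud1, which assembles the degradation complex, stood at -0.92 ± 0.30. Of these 9 members 8 had a promoter entry, and 6 of them carry ERSE or ERSE-II, printed above (Calr, Creld2, Dnajc3, Herpud1, Hspa5 and Pdia6), against 10 of all 31. The 9 were taken by unadjusted p, and a difference from the share among all 31 was not tested. Of the transcription factors Xbp1 stood at -0.43 ± 0.44, near the median member, Atf4 at -0.25 ± 0.30 and Ddit3 at 0.18 ± 0.35. For Xbp1 and Atf4 these errors are too wide to tell no change from a fall like that of the median member. Hsp90b1, the ER paralogue of HSP90, was at -0.11 ± 0.46.

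In cancellous bone of the same mice no gene passed (limma; 0.0% of all genes called), and 4 members and 5.8% of all genes had an unadjusted p under 0.05. Hspa5 was the member of smallest p. It ranged from 1396 through a median of 2041 to 3068 in 7 vehicle libraries and from 961.7 through 1154 to 1378 in 8 PTH libraries. The groups do not overlap, by a margin of 1378 to 1396, and the log2 difference was -0.89 ± 0.23 (SE; limma, adjusted p = 0.462). Dnajc3 followed at -0.71 ± 0.22 (adjusted p = 0.801).

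In lymph node 0.32% of all genes were called lower and 0.357% higher (0.677% in either direction), and no member. Creld2, an ER stress-induced secreted factor, was at 36.73 ± 20.47 in vehicle and 19.9 ± 6.39 in PTH libraries (SD, n = 16 each), a log2 difference of -0.77 ± 0.20 (SE; limma, adjusted p = 0.0595). Hsp90b1 was at -0.61 ± 0.17 (adjusted p = 0.0689) and Hspa5 at -0.33 ± 0.13 (adjusted p = 0.203). In cartilage 1 of 36 members was called, below the 13.9% of all genes called in either direction (5.69% lower and 8.17% higher). It was Sdf2l1, a cofactor of BiP in the ER lumen, at 20.2 ± 8.17 in vehicle and 12.5 ± 4.52 in PTH libraries (SD, n = 15 each). The log2 difference was -0.64 ± 0.21 (SE, limma adjusted p = 0.0331), a call lost with shallow libraries kept and with the replicate number as a block. Sdf2l1 values overlapped, at 9.35 to 36.4 in vehicle and 5.79 to 21.0 in PTH mice. Hspa5 in cartilage was at -0.32 ± 0.14 (adjusted p = 0.134), and its ranges overlapped, at 517.6 to 1414 and 474.7 to 1105.

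**Figure D2:**
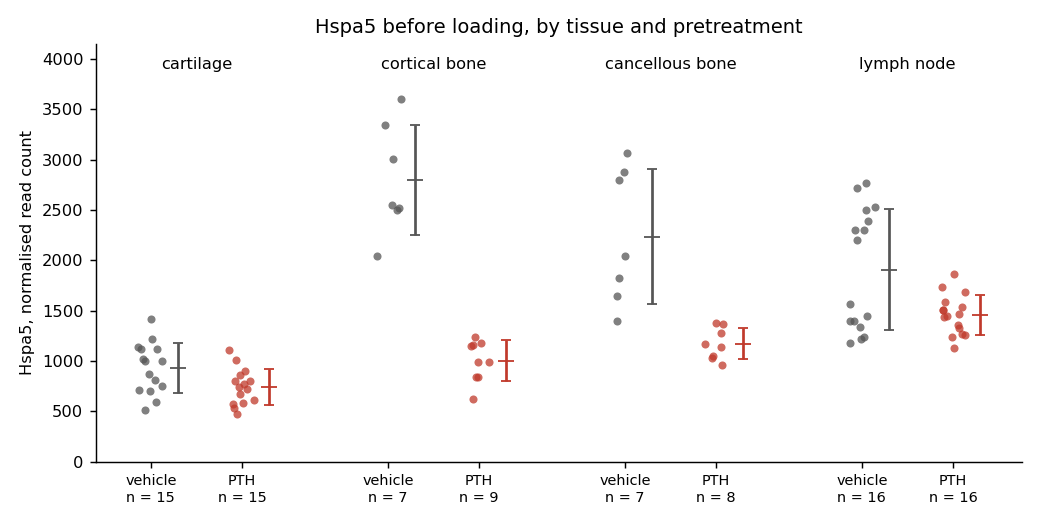
Hspa5 normalised read count in each library before loading (points), by tissue and pretreatment, with mean ± SD beside them; n counts libraries. Vehicle and PTH libraries do not overlap in cortical and cancellous bone, overlap in cartilage and lymph node, and vehicle lymph nodes form an upper and a lower cluster.

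The vehicle libraries of lymph node fell into 2 clusters that followed the mouse. The means of the 2 lymph nodes of a mouse were 2351, 2511, 2418 and 2580 in vehicle mice 1, 2, 4 and 6, and 1450, 1421, 1230 and 1293 in mice 3, 5, 7 and 8. PTH mice ran from 1227 to 1649, below every mouse of the first 4. All bone libraries of the vehicle group come from mice 1 to 4. In cortical bone mice 1 to 4 stood at 3055, 3178, 2047 and 2534, and mouse 3 was the lowest of these 4 in both tissues. Taking each mouse as 1 value, PTH differed from vehicle by -1.41 on the log2 scale in cortical bone and by -0.84 in cancellous bone (4 against 5 mice each), by -0.33 in lymph node and by -0.29 in cartilage (8 against 8 mice each). These are given with no test, since Hspa5 was picked for its change in cortical bone.

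A heat shock gene, Hsph1, and a cold-inducible gene, Cirbp, were read across the same mice and were picked after their values were seen. Hsph1, a cytosolic heat shock protein, averaged 354.4, 177.3, 105.1 and 148.7 in the lymph nodes of vehicle mice 1, 2, 4 and 6, and 42.95 to 79.7 in the other 4 vehicle mice. Cirbp, a cold-inducible RNA-binding protein, went the other way, at 30.35 to 75.27 in mice 1, 2, 4 and 6 and 104.3 to 157.2 in the others. Of 17 heat shock genes outside the ER, 16 had negative PTH differences in cortical bone (median -0.61), 14 in cancellous bone (median -0.39) and 13 in lymph node (median -0.32), with 0 passing in each. In cartilage 5 of the 17 passed as lower, Hsp90aa1 and Stip1 first, and 1 as higher. Cirbp was higher after PTH by 1.501 ± 0.437 in cortical bone (limma, adjusted p = 1.00) and by 1.06 ± 0.28 in cartilage, where it passed (adjusted p = 0.0106). Rbm3, the other cold-induced gene listed, did not pass, at 0.58 ± 0.30 in cortical bone, 0.11 ± 0.43 in cancellous bone, 0.71 ± 0.19 in lymph node and -0.22 ± 0.17 in cartilage, the opposite sign to Cirbp there. The part of these differences between mice in the Hspa5 result was not tested. In the 16 cortical bone libraries before loading, neutrophil markers ran from 9867 to 73110 CPM and skeletal muscle markers from 569.1 to 47880. The part of these markers in the Hspa5 result was not tested either. In cartilage, fibroblast markers rose in 7 of 7 after PTH and neutrophil markers fell in 8 of 9, and their part in the Sdf2l1 result was not tested.

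After 1 and 2 weeks of loading Hspa5 did not differ past the threshold between PTH and vehicle mice in any tissue or limb. Its largest negative value was in contralateral cancellous bone at 2 weeks, -0.48 ± 0.21 (limma, adjusted p = 0.478), and in cortical bone the values were 0.11 ± 0.30 and -0.23 ± 0.25 at 1 week and -0.25 ± 0.21 and -0.22 ± 0.19 at 2 weeks, loaded limb first. Whether the difference before loading was larger than these was not tested, since they come from separate tables.

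Loading in cartilage raised some members, most often Sec61a1 (in 6 of 8 comparisons), P4hb and Ssr1 (4 each), and none was called lower in a single treatment. In vehicle mice, Sec61a1, the pore-forming subunit of the translocon (chr6:88503579-88518905, minus strand, GRCm38), was the only member past the threshold at either time. At 1 week it ranged from 636.9 through a median of 813.3 to 978.5 in 7 loaded limbs and from 237.4 through 505.3 to 723.1 in 7 contralateral limbs. The groups overlapped, and the log2 difference was 0.78 ± 0.21 (SE; limma, adjusted p = 0.033), with 1.04% of all genes called higher (1.35% in either direction). At 2 weeks it ranged from 379.7 through 583.3 to 1070 in 8 loaded and from 224.6 through 297.7 to 379.9 in 8 contralateral limbs. The groups touched, at 379.7 and 379.9, and differed by 1.04 ± 0.23 (adjusted p = 0.00517), with 1.13% of all genes called higher (1.37% in either direction). Replicate numbers mark limbs of the same mouse in 28 of 29 cases at 1 week and 24 of 24 at 2 weeks, and with the replicate as a block 0 members passed at 1 week and 3 at 2 weeks.

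In treated mice the counts ran from 0 to 9. At 1 week 3 were higher in PTH mice (P4hb, Ppib and Sec61a1; 2.45% of all genes called higher, 0.705% lower and 3.15% in either direction), 9 in alendronate mice (4.56%, 2.1% and 6.67%) and 4 in PTH-alendronate mice (7.24%, 3.34% and 10.6%). At 2 weeks 3 were higher in PTH mice (P4hb, Sec61a1 and Ssr1; 3.43%, 1.28% and 4.71%), 3 in alendronate mice (Calr, Canx and Ssr1; 3.85%, 2.38% and 6.24%) and 0 in PTH-alendronate mice (0.573%, 0.0198% and 0.593%), where the contralateral group had 4 libraries. Without the mixed-marker library the PTH-alendronate count at 1 week was 5, with Hyou1 added. With the replicate block the 2-week counts were 1 in PTH and 0 in alendronate mice, and without the 2 mixed-marker libraries the PTH count was 2. No member was called lower in any of these 8 comparisons, and 12 of 36 had positive differences in all 8. The 24 calls fell on 10 members. No change of the loading response by treatment passed for any member (limma interaction terms; 0.00216% of all genes called), so the counts above do not show that treatments differ.

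P4hb is one of the clearest. At 1 week in alendronate mice it ranged from 522.1 through 1054 to 1503 in 8 loaded limbs and from 375.7 through 442.4 to 562.7 in 8 contralateral limbs, a log2 difference of 1.02 ± 0.18 (SE; limma, adjusted p = 4.44e-05). Sec61a1 in the same mice ranged from 524.8 through 854.2 to 1930 and from 236.5 through 391.8 to 524.7, with no overlap (524.7 against 524.8), a difference of 1.21 ± 0.19. Hspa5 ranged there from 1191 through 1679 to 2104 and from 1018 through 1155 to 1311, which overlap, a difference of 0.46 ± 0.15 (adjusted p = 0.042). Pdia3, an oxidoreductase that works with calnexin and calreticulin, rose by 1.01 ± 0.18, and Ppib, the ER cyclophilin that assists collagen folding, by 1.00 ± 0.21.

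**Figure D3:**
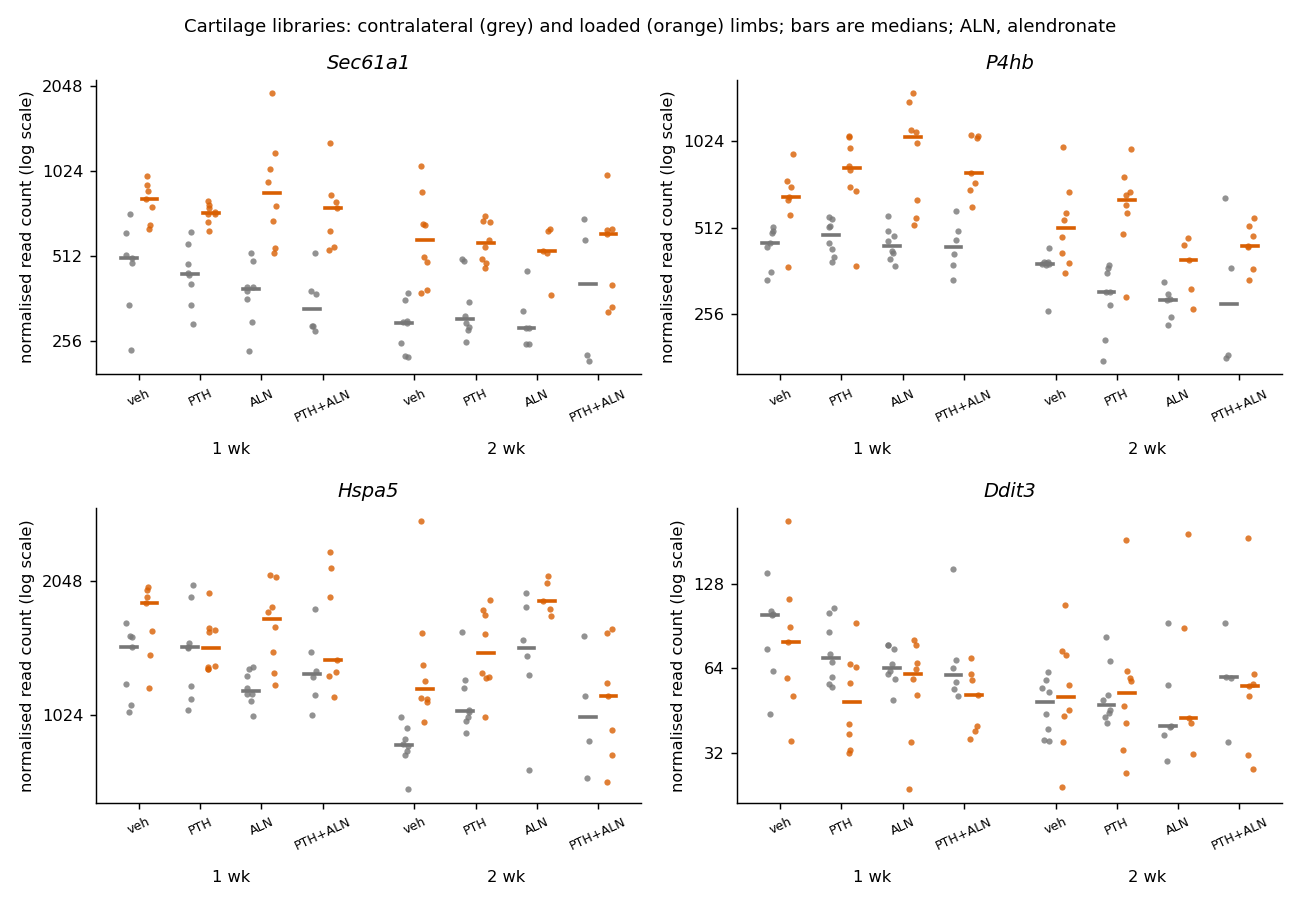
Normalised read count (log scale) of Sec61a1, P4hb, Hspa5 and Ddit3 in each cartilage library at 1 and 2 weeks, by treatment and limb, with medians as bars. Medians of Sec61a1 and P4hb are higher in the loaded limb in all 8 pairs of groups, while those of Ddit3 lie on either side.

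Averaged over the 4 treatments, an average added after the single treatments had been seen, 14 of 36 members (38.9%) were higher with 1 week of loading, against 13.8% of all genes, and 1 was lower, against 11.2% (25% in either direction). At 2 weeks, in other mice, 11 members (30.6%) were higher, against 11.5% of all genes, and 0 lower, against 9.69% (21.2% in either direction). All 11 were among the 14 of the first week. The median member stood at 0.25 at 1 week and 0.14 at 2 weeks, and the median of all genes at 0.01 and -0.01.

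Of the 5 isomerases 5 rose at 1 week and 4 at 2 weeks. P4hb rose by 0.80 ± 0.09 and 0.63 ± 0.12 (SE; limma, adjusted p = 4.95e-10 and 0.000122), Pdia3 by 0.71 ± 0.10 and 0.79 ± 0.19, Ppib by 0.73 ± 0.11 and 0.53 ± 0.17, and Pdia4, a larger disulfide isomerase, by 0.91 ± 0.20 and 0.82 ± 0.27. Pdia6 rose by 0.50 ± 0.09 at 1 week and stood at 0.22 ± 0.12 at 2 weeks (adjusted p = 0.182). Both lectin chaperones, which hold glycoproteins during folding, rose at both times, Calr by 0.39 ± 0.08 and 0.56 ± 0.13 and Canx by 0.21 ± 0.06 and 0.40 ± 0.10.

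Among translocon genes Sec61a1 rose by 0.95 ± 0.10 and 0.77 ± 0.13 and Ssr1, a subunit of the translocon-associated complex, by 0.51 ± 0.08 and 0.65 ± 0.11. Ssr3 of the same complex rose by 0.54 ± 0.16 at 1 week and stood at 0.30 ± 0.18 at 2 weeks (adjusted p = 0.24). Sec61b, another subunit of the pore, did not follow, at 0.29 ± 0.15 and -0.46 ± 0.29. Of the 9 folding chaperones 3 passed at 1 week and 2 at 2 weeks. Hspa5 rose by 0.28 ± 0.08 and 0.37 ± 0.11 (adjusted p = 0.0043 and 0.0117) and Hsp90b1 by 0.39 ± 0.10 and 0.58 ± 0.15, while Dnajc3 rose by 0.21 ± 0.08 at 1 week and stood at 0.26 ± 0.11 at 2 weeks (adjusted p = 0.0972).

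Of the 6 sensors and transcription factors 0 were called higher at either time. Xbp1 stood at -0.08 ± 0.18 and -0.15 ± 0.16, Atf4 at -0.04 ± 0.09 and 0.12 ± 0.15, Atf6 at -0.10 ± 0.14 and 0.05 ± 0.25, Ern1 at -0.05 ± 0.30 and 0.07 ± 0.34 and Eif2ak3 at 0.35 ± 0.16 and 0.13 ± 0.20. Ddit3, the stress factor CHOP, fell by 0.35 ± 0.13 on the log2 scale at 1 week (adjusted p = 0.0453), a call lost with edgeR, with no filter on low values and with the replicate block, and stood at 0.15 ± 0.19 at 2 weeks. The ATF4 targets Trib3, at 0.13 ± 0.32 and 0.23 ± 0.33, and Asns, at -0.17 ± 0.13 and -0.27 ± 0.28, did not pass. Of 7 degradation genes 1 passed at each time, Sel1l, the scaffold of the HRD1 ligase, by 0.26 ± 0.07 and 0.43 ± 0.11, while Syvn1, the HRD1 ligase itself, stood at -0.04 ± 0.29 and -0.55 ± 0.23. Spliced Xbp1, and the activity of any sensor, cannot be read from counts of 3' ends.

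**Figure D4:**
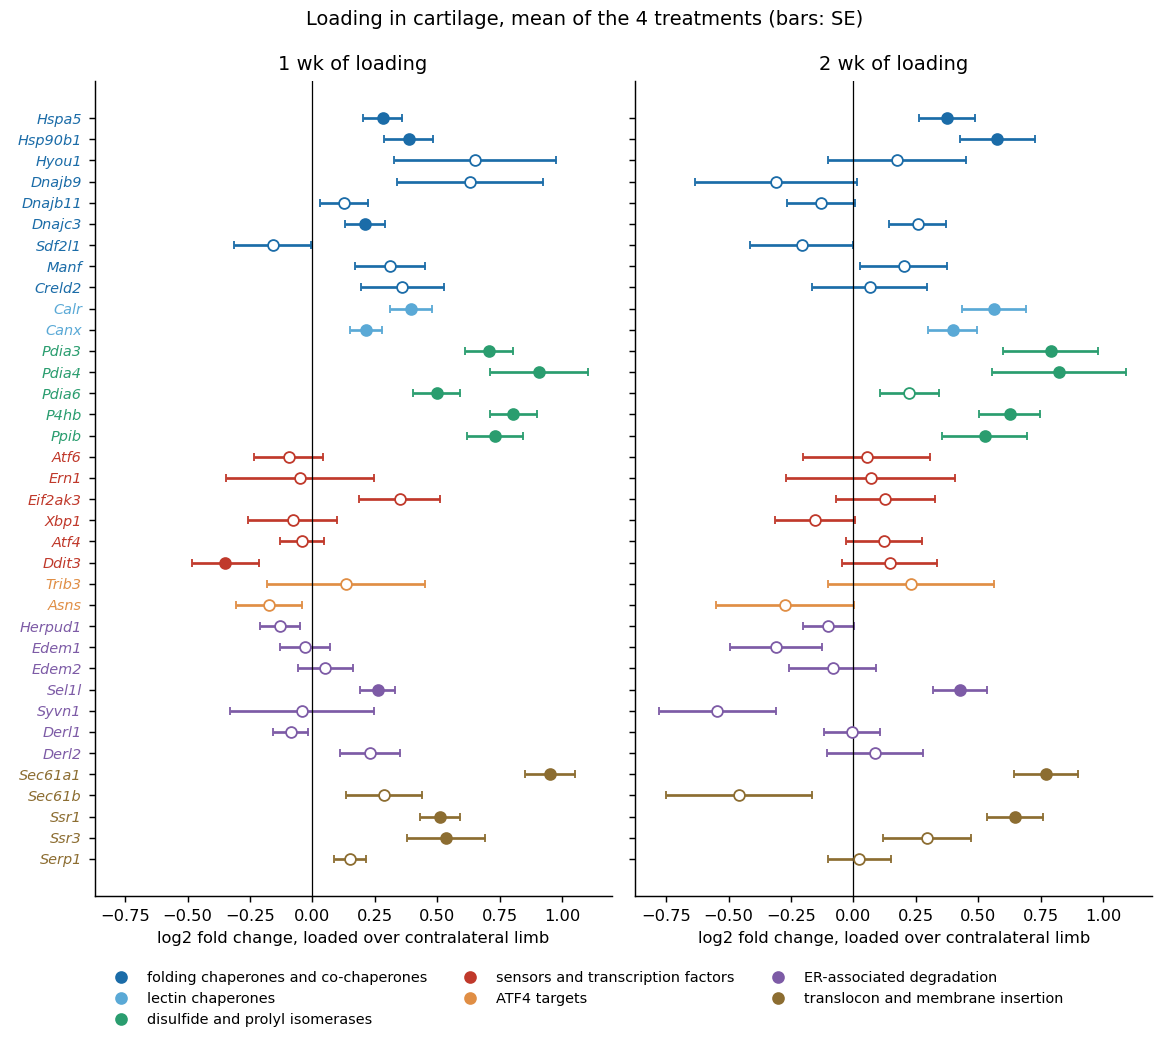
Log2 fold change of each member with loading in cartilage, averaged over 4 treatments, at 1 and 2 weeks (point ± SE; filled where the adjusted p is under 0.05), coloured by role. The isomerases, lectin chaperones and Sec61a1 lie to the right at both times. None of the sensors, transcription factors and ATF4 targets is called higher, and Ddit3 is called lower at 1 week.

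Of the 14 members higher at 1 week 13 had a promoter entry, and 6 of them carry ERSE or ERSE-II. Of the 11 higher at 2 weeks 10 had an entry, and 4 carry an element. Among all 31 members with an entry 10 carry one, and a difference from that share was not tested. Other genes of the secretory pathway were read from lists chosen with the members, against 13.8% of all genes higher and 11.2% lower at 1 week and 11.5% and 9.69% at 2 weeks. Of 19 genes for collagen secretion in the ER, 18 rose at 1 week (median 1.36), with P4ha3 (3.38 ± 0.23) and Lepre1 (1.76 ± 0.14) of smallest p, and 17 at 2 weeks (median 1.31), with Fkbp10 (1.87 ± 0.18) and Leprel4 (1.94 ± 0.20), and 0 fell. Of other translocation, glycosylation and transport genes 22 of 32 rose and 1 fell at 1 week, led by the cargo receptor Lman1 (0.97 ± 0.09), and 12 of 33 rose and 2 fell at 2 weeks. Of other folding and degradation genes 13 of 35 rose and 1 fell at 1 week, led by the prolyl isomerase Fkbp14 (1.67 ± 0.18), and 8 rose and 0 fell at 2 weeks. Of other ATF4 and stress response genes 6 of 33 rose and 3 fell at 1 week, and 7 of 34 rose and 2 fell at 2 weeks.

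Cell markers moved with these results. Fibroblast markers rose in 6 of 7 at both times (median 2.66 and 2.41) and cartilage cell markers in 8 of 9 and 9 of 9 (median 1.54 and 1.95). In alendronate mice at 1 week fibroblast markers summed to 5237 to 31900 CPM in loaded and 2238 to 7795 in contralateral limbs. Neutrophil markers fell in 6 and 7 of 9, adipocyte markers in 7 of 7 at both times, and skeletal muscle markers in 9 of 9 at 1 week and 0 at 2 weeks. No cartilage or fibroblast marker was at 0 in every library of a group. Their part in the rise of the members was not tested. Leaving out the libraries with mixed markers gave 15 higher and 1 lower at 1 week and 11 higher at 2 weeks, with all calls kept at both times.

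In bone and lymph node loading moved no member past the threshold in vehicle mice or in any treated group (limma; in treated mice 0.0273% of all genes called higher and 0.000426% lower), although 9 calls were made in treated mice with the replicate block. In vehicle mice the members of smallest p were Sdf2l1 (-1.04 ± 0.46, SE) and Atf6 (-1.04 ± 0.46) in cortical bone at 1 week, with 0.126% of all genes called higher and 0.00665% lower. They were Eif2ak3 (-1.39 ± 0.53) and Sec61a1 (-0.81 ± 0.36) there at 2 weeks, where 0.0% of genes were called. In cancellous bone Sec61a1 stood at -0.72 ± 0.38 and -0.70 ± 0.34 at 1 and 2 weeks, with P4hb at -0.55 ± 0.34 and Pdia6 at 0.46 ± 0.33 next, again with 0.0% of genes called. All adjusted p of these were 0.416 or more.

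In lymph node of vehicle mice at 2 weeks, 14 members and 12.0% of all genes had an unadjusted p under 0.05. Of these members 12 were lower in the left node, with Manf at -1.26 ± 0.37 (limma, adjusted p = 0.31) and Pdia6 at -0.58 ± 0.20. The median member stood at -0.39 and the median of all genes at -0.04. Without the 2 libraries with high plasma cell markers 6 members had an unadjusted p under 0.05 and the median was -0.22, and without the mixed-marker library 11 and -0.43. The share of all genes in these repeats is not given here. Averaged over treatments, Hsp90b1 (-0.47) and Ssr1 (-0.27) were called lower at 2 weeks, 2 of 36 members against 4.61% of all genes there, which is near that share (1.73% called higher and 6.34% in either direction, and over all 6 such averages in bone and lymph node 0.527% higher, 0.787% lower and 1.31% in either direction), and neither passed without the 2 plasma-marker libraries. At 1 week, where 0.0% of genes were called, P4hb (-0.38 ± 0.15, adjusted p = 0.244) and Hyou1 (0.85 ± 0.39) came first in lymph node. An unadjusted p under 0.05 was reached there by 3 members and 14.2% of all genes. Without the mixed-marker library, vehicle right 1, it was reached by 0 members. Left and right limbs before loading did not differ for any member in the 4 tissues (0.0% of all genes called).

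Alendronate and vehicle mice differed in some members in lymph node at 2 weeks, where the titles of alendronate and PTH-alendronate mice carry codes with a letter and those of vehicle and PTH mice plain numbers, so treatment and code series cannot be told apart. In the left node 7 members were higher and 2 lower than vehicle, against 9.59% and 19.4% of all genes, so that the 9 of 36 called lie below the 29.0% of all genes called in either direction. Calr ranged from 424.5 through 762.0 to 962.4 in 7 vehicle libraries and from 904.3 through 1468 to 1754 in 8 alendronate libraries, which overlap, a log2 difference of 0.94 ± 0.15 (SE; limma, adjusted p = 5.42e-06). Pdia3 ranged from 160.5 through 289.2 to 336.3 and from 566.2 through 683.8 to 805.3, with no overlap, a difference of 1.35 ± 0.24. Hsp90b1 (1.09 ± 0.28) and Sec61b (0.97 ± 0.23) were higher as well, and Sec61a1 (-0.93 ± 0.23) and Trib3 (-0.87 ± 0.34) lower.

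In the right node 3 were higher and 3 lower, against 5.42% and 4.13% of all genes. Calr stood at 0.81 ± 0.16, Pdia3 at 1.12 ± 0.26 and Eif2ak3 at 0.91 ± 0.30, and Manf (-1.33 ± 0.37), Asns (-1.49 ± 0.44) and Sel1l (-0.55 ± 0.18) were lower. Without the plasma-marker libraries 5 were higher and 1 lower, and Manf stood at -1.04 ± 0.36 (adjusted p = 0.0674). Without the mixed-marker library 2 were higher and 5 lower. In PTH-alendronate mice 1 of 36 members, Calr, was higher in the left node (0.57 ± 0.15), near the 2.48% of all genes. In the right node Calr was higher and 5 members lower, led by Manf (-1.81 ± 0.37), against 3.29% and 2.05%. Without the plasma-marker libraries 2 were higher and 3 lower there.

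In cartilage at 2 weeks the same confounding holds. Against vehicle, alendronate mice had Hsp90b1 (1.09 ± 0.30) and Pdia3 (1.301 ± 0.387) higher and Derl1 (-1.10 ± 0.22) and Dnajb11 (-0.84 ± 0.28) lower in the loaded limb. These are 2 of 36 members in each direction, near the 4.83% and 5.7% of all genes called higher and lower. None of these calls passed with the replicate block. In the contralateral limb Asns (-1.86 ± 0.53) and Manf (-1.14 ± 0.34) were lower, against 3.9%, and without the mixed-marker libraries Hspa5 was called higher as well (0.67 ± 0.21, adjusted p = 0.0463, and 0.0509 with them). In PTH-alendronate mice Manf was lower in both limbs, by -1.20 ± 0.32 and -1.59 ± 0.38, with Pdia6 (-0.74 ± 0.22) in the loaded limb, against 1.7% in that limb and 0.533% in the other. With the replicate block these calls for Asns, Manf and Pdia6 did not pass either.

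In bone both code series occurred within alendronate mice at 1 week and within vehicle and PTH mice at 2 weeks, while the other groups held 1 series, and the series was a term in the fit. Between letter and number codes at 1 week, 8 members were higher and 3 lower in cortical bone, against 10.5% and 7.2% of all genes, led by Serp1 (-1.15 ± 0.24), Pdia4 (2.77 ± 0.63), Calr (1.26 ± 0.33) and Hsp90b1 (1.62 ± 0.43). In cancellous bone 4 were higher, Hsp90b1 (1.19 ± 0.26), Xbp1, Edem1 and Pdia6, against 7.31%. At 2 weeks Hsp90b1 (0.74 ± 0.19) was higher and Sdf2l1 (-1.38 ± 0.38) lower in cortical bone, against 1.32% and 2.03%, and 0 members in cancellous bone, against 0.0%. Hsp90b1 was higher in letter codes in 3 of these 4 tables. With the series as a term, 4 members were lower with alendronate in contralateral cortical bone at 1 week, Hsp90b1 (-1.69 ± 0.54), Pdia3 (-1.79 ± 0.51), Pdia4 (-2.75 ± 0.80) and Eif2ak3 (-1.88 ± 0.52), against 5.94% of all genes. Without it none of the 4 passed, and they stood at -0.47, -0.95, -0.66 and -0.87. With the replicate block Hsp90b1 and Pdia4 stood at 0.56 and 0.90, on the other side of 0. What the code series stands for is not given in the sources used here.

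**Figure D5:**
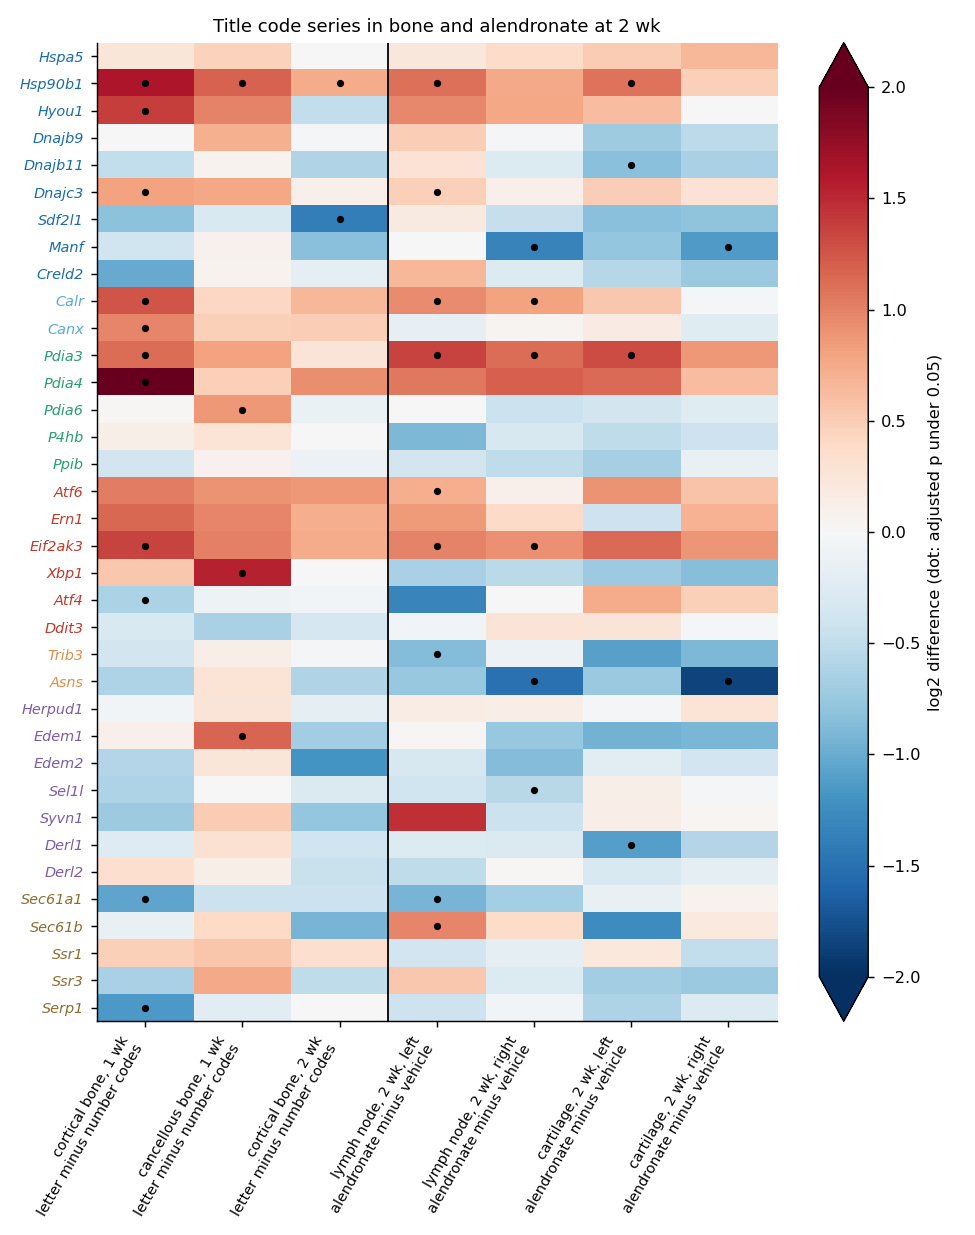
Log2 difference of each member between letter and number codes in bone (left of the line) and between alendronate and vehicle mice at 2 weeks in lymph node and cartilage (right of the line), where codes and treatment coincide; dots mark an adjusted p under 0.05. Hsp90b1 and Pdia3 are positive in all 7 columns and Calr in 6.

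Across libraries, as deviations from group means, the members as a set varied together only weakly. The median Pearson r of their 630 pairs ran from 0.032 in cortical bone to 0.143 in lymph node. Hsp90b1 followed Hspa5 with an r of 0.31 to 0.375 in the 4 tissues and Dnajc3 with 0.262 to 0.428. Pdia6 with Hspa5 varied from 0.064 in cortical bone to 0.478 in cancellous bone. Sec61a1 with Hsp90b1 was negative in all 4 tissues, from -0.622 in cortical bone to -0.099 in cartilage. In cartilage P4hb followed the summed fibroblast markers (r = 0.706 over 143 libraries) and Ssr1 the cartilage cell markers (r = 0.594). Each was the highest of the 36 members, whose median r was 0.213 and 0.149. Ssr1 was also the highest member with osteoblast markers in cartilage (r = 0.581) and the lowest with B cell markers (r = -0.586). In lymph node Edem1 followed the plasma cell markers (r = 0.679 over 134 libraries), the highest of the members, whose median r was 0.253. A positive r with plasma cell markers was found for 31 of 36 members. With markers of dividing cells, fibroblasts and adipocytes it was found for 29, 28 and 27. The libraries set apart by markers are included in these values. These are descriptions, since libraries share mice and depth differs between them.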

How the data were processed

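The labels' protocols name a Qiagen RNeasy extraction and an Illumina 3' RNA-seq kit. The submitters' processing notes list Trimmomatic 0.39, STAR, edgeR and the mm10 build, without their roles. The deposited values are a normalised signal, the authors' normalised read counts, in 12 tables that were scaled separately. Each value is a whole number of steps of its library (100.0% within 0.01), so the whole reads were recovered. A total of 44 of 549 samples were not analysed here, and 28 libraries under 100000 reads were left out. Entries that name no gene (4 to 27 per table) held at most 0.247% of reads and were dropped.

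Differences were tested with limma 3.58.1 (R 4.3.3) on log2(value + 1) with a variance trend. Genes had a CPM of 1 or more in as many libraries as the smallest group, and p-values were adjusted (Benjamini-Hochberg) over all genes of a table. All groups of a table shared 1 fit, with the mouse, inferred from title codes, as a random block (statmod 1.5.0), the limb as a term before loading and the code series as a term in bone afterwards. Comparisons needed 3 libraries a group. The correlation between libraries of a mouse was estimated at -0.0061 to 0.0849 in the 12 fits, so limbs of a mouse counted almost as independent. The p-values therefore measure mainly the spread between libraries of these mice. Fold changes on this scale understate the change of low genes. edgeR 4.0.16 on the recovered reads, other pseudocounts, filters and scalings, arrayWeights and a replicate block were alternatives. Libraries of a group all differed beyond sampling noise (chi-square per degree of freedom at least 2.203). The fits were tested on simulated data.

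The members and lists were chosen with earlier results of these data known, and the loading averages, the heat shock and cold-induced lists and the code series comparison were added after results had been seen. Members are named by their roles and smallest p, with Hspa5, Hsp90b1, Xbp1, Atf4 and Ddit3 always considered. Positions are from GENCODE vM21 and promoters from RefSeq, both on GRCm38.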

Additional observations from a re-analysis of the deposited data

Results flagged for a closer look

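In 120 groups of at least 4 libraries of the members looked at, 14 single libraries lay far from the rest of their group, by the gap to the next library over the whole range. Chance alone would mark about 1 in 20 groups if values were normal and independent. Groups of different members share libraries here, so the 14 are not set against that rate. In lymph node before loading, Hsp90b1 was 202.9 in PTH left 8, against 694.8 to 994.6 in the others, and Creld2 was 7.358 in PTH right 9, against 17.92 to 32.59. In cartilage at 1 week P4hb was 376.8 in PTH left 6, against 689.2 to 1068 in the others, and Ddit3 was 145.4 in PTH-alendronate right 2, against 51.18 to 68.75. At 2 weeks in cartilage P4hb was 262.1 in vehicle right 3, against 378.4 to 436.3, and Hspa5 was 2781 in vehicle left 4, against 985.7 to 1562. Ddit3 was 184.1 in PTH left 6, against 27.08 to 62.69, and 187.3 in PTH-alendronate left 7, against 27.97 to 61.37. In lymph node at 2 weeks Calr was 424.5 in vehicle left 2, against 711.3 to 962.4, and Manf was 8.357 in the same library, against 78.76 to 141.1. Manf was 523.6 in vehicle right 6, the library with high plasma cell markers, against 120.5 to 156.0, and 22.09 in PTH-alendronate right 1, against 45.84 to 63.48. Hsp90b1 was 422.0 in alendronate left 8, against 1001 to 1390, and 1951 in alendronate right 8, against 1039 to 1300.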

How the results depend on the processing

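Of 738 repeats of 89 member calls under other settings, 648 kept the direction and the threshold, 88 kept the direction only and 2 reversed, Hsp90b1 (0.558) and Pdia4 (0.896) for alendronate in contralateral cortical bone at 1 week with the replicate block. Counts of members called moved by more than 1.5 times as follows, and the cause was not tested. For PTH before loading, cartilage gave 0 with all libraries and 2 with edgeR and with arrayWeights (1 as reported), cortical bone 0 with the replicate block and 0 to 1 with each mouse left out (1), and lymph node 2 with edgeR and 3 with arrayWeights (0). For loading in cartilage at 1 week, vehicle mice gave 0 with edgeR and with the replicate block and 8 with arrayWeights (1), PTH mice 6 (3) and alendronate mice 16 (9) with arrayWeights. At 2 weeks, vehicle mice gave 7 with arrayWeights and 3 with the block (1), PTH mice 14 and 1 (3), and alendronate mice 6 and 0 (3). In lymph node of vehicle mice edgeR called 1 at each time (0). Treated mice in bone and lymph node gave 5 with arrayWeights and 9 with the block (0). Treatment in loaded limbs gave 56 and 2 (16), and in contralateral limbs 12 with all libraries, 35 with edgeR and 48 with arrayWeights (19). Averaged loading in bone and lymph node gave 1 with TMM scaling, 6 with arrayWeights and 0 without the plasma-marker libraries (2). Averaged loading in cartilage stayed within 1.5 times in every setting. The left and right numbers pair limbs of 1 mouse in 106 of 155 cases (28 of 29 and 24 of 24 in cartilage, 22 of 27 in lymph node at 2 weeks), and 67 of the 155 correlated above 0.1. Depth limits low members such as Ern1 and Trib3, listed at 0 in some libraries.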
